A study of Mus musculus with 4 samples.

Results

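The promoters described here belong to autosomal protein-coding genes with a high ratio of observed to expected CpG dinucleotides at the gene 5′ end. They had no peak of the histone mark H3K27ac in adult mouse cortex. A promoter was called CpG-rich when the 1 kb of sequence centred on the gene 5′ end had a CpG observed/expected ratio of at least 0.66, that is, the CpG count times the length, divided by the product of the C and G counts. It was selected as unmarked when no peak of any of 4 deposited lists lay within 1 kb of any transcription start site (TSS) of the gene. Of 20807 autosomal protein-coding genes, 8454 had a CpG-rich promoter, and 650 of these (7.69%) met the rule. The other 7804 CpG-rich promoters had a peak. Among 12353 CpG-poor promoters, 7562 (61.2%) had no peak. Because the 650 genes were selected on the peak calls and on the CpG ratio, neither their lack of a promoter peak nor their high ratio is a result.

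H3K27ac was measured by chromatin immunoprecipitation and sequencing (ChIP-seq) in the left cerebral cortex of female mice of the strain B6CASTF1/J, adult and 2 months old, which are first-generation hybrids of C57BL/6J and CAST/EiJ. Pools I and J each combined 4 biosamples and gave 2 technical libraries, so the 4 samples form 1 group with 2 pools. No other tissue, treatment or genotype was compared, and no test between conditions was possible. The tissue is a mixture of cell types, so a promoter acetylated in few cells and a promoter acetylated weakly in many cannot be told apart.

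The values came from a replicated list and a list of both pools, made from the alignments of both pools together, and from 1 list for each pool. These 4 lists are not independent. Those made from both pools share reads with each other and with the list of each pool. The lists of pool I and pool J come from separate alignments. They held from 49839 peaks (pool J) to 76359 peaks (both pools). The signal is the height the authors' peak caller gave, in units whose normalization the sources used here do not state, and it is used only within a list. The number of reads behind each list is unknown. Absence from a list therefore means that no peak was called, not that acetylation was absent.

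Most CpG-rich promoters in vertebrates are CpG islands, which are usually free of DNA methylation and open to transcription in many cell types. H3K27ac is placed by the acetyltransferases p300 and CBP at active promoters and enhancers. At islands of developmental regulators that a tissue does not use, the same lysine often carries the methylation placed by Polycomb repressive complex 2, which excludes acetylation of that residue. Islands of germline genes are instead often DNA-methylated in somatic cells. Neither Polycomb marks nor DNA methylation were measured here.

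The promoters of 6 unmarked genes are shown because each has the highest CpG ratio among the unmarked members of its family, and 1 promoter with a peak is shown beside them. Each runs from 250 bases before to 50 bases after the gene 5′ end, 5′ to 3′ on the gene's strand, in the mouse assembly GRCm38 (mm10), and every CpG is in capitals. Hoxa5, which sets position along the body axis, lies at chr6:52204538-52204837 on the minus strand, and its sequence holds 29 CpGs.
Hoxa5: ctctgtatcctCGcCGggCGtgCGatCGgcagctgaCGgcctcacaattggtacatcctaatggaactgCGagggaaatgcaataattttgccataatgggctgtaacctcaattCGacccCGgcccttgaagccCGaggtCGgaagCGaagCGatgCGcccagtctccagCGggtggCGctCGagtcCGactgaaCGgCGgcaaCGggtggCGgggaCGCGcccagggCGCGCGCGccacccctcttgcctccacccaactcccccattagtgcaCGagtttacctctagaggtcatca
Gata5, a zinc finger factor of heart and gut, lies at chr2:180334650-180334949 on the minus strand with 24 CpGs.
Gata5: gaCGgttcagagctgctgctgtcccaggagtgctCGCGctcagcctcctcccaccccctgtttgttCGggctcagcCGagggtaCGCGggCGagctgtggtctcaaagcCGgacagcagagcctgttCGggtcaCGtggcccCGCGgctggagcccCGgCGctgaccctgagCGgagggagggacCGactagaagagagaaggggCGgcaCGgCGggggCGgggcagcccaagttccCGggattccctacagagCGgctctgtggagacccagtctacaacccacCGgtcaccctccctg
Wnt5b, a secreted Wnt ligand, lies at chr6:119544298-119544597 on the minus strand with 47 CpGs.
Wnt5b: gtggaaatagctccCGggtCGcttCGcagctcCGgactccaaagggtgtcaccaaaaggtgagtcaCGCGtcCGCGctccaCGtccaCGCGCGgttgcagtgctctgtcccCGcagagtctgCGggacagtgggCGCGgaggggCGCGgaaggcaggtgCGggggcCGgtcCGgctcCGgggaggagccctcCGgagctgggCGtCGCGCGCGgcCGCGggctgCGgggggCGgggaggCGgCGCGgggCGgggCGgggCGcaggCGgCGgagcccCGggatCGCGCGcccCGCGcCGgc
Boll, an RNA-binding protein of germ cells, lies at chr1:55363420-55363719 on the minus strand with 45 CpGs.
Boll: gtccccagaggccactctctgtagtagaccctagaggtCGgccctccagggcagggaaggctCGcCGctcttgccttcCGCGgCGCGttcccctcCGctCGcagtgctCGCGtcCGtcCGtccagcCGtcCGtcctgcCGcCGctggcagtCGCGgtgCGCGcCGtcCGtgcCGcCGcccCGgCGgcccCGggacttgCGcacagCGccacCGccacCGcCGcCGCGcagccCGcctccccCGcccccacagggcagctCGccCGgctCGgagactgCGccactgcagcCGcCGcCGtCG
Nkx6-2, a homeobox factor of the oligodendrocyte lineage and ventral neural tube, lies at chr7:139582748-139583047 on the minus strand with 32 CpGs.
Nkx6-2: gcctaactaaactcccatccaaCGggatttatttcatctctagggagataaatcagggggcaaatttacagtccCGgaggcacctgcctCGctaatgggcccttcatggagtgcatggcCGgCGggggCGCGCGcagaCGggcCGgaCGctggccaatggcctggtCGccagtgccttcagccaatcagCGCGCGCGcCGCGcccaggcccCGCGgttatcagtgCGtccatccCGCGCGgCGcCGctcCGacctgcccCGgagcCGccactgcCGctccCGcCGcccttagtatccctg
Tbx21, the T-bet factor of T lymphocytes, lies at chr11:97115282-97115581 on the minus strand with 21 CpGs.
Tbx21: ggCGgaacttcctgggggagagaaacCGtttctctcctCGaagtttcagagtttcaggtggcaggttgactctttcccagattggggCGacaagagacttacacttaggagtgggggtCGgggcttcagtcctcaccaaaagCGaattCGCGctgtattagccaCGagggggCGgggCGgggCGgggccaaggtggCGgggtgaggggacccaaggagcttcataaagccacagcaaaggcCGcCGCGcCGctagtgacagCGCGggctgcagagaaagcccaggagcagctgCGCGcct
Atp6v0c, a subunit of the vacuolar proton pump, had the CpG-rich promoter with the highest signal in the replicated list, 41.8, against 45.4 in pool I and 36.6 in pool J. It lies at chr17:24169653-24169952 on the minus strand with 20 CpGs.
Atp6v0c: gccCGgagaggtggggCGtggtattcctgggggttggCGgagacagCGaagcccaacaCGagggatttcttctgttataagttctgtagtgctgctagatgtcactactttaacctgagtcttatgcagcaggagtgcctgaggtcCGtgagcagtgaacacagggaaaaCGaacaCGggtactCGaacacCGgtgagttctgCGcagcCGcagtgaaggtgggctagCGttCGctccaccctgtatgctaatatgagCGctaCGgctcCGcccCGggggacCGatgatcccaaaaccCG
The unmarked promoters were picked for their CpG ratio and the marked one for its signal, so their CpG counts are not to be compared.

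The choice of list moved the number of unmarked promoters. Without a peak were 719 CpG-rich promoters in the replicated list (8.50%), 704 in the list made from both pools (8.33%), 759 in pool I (8.98%) and 930 in pool J (11.0%), and the 650 are those absent from all 4. All 4 lists had a peak at 7477 CpG-rich promoters (88.4%). Of the others, 52 had one in 1 list, 81 in 2 and 194 in 3. The promoters marked in 1 list alone had low signals. Those of the replicated list alone were 24 genes with a median signal of 2.64 and a highest of 3.17, where the median over all autosomal peaks of that list was 3.67. In the pool I list alone were 18 genes, with a median of 3.40 and a highest of 4.91 against 4.52 over all its peaks. They include Bmp7, a secreted growth factor, the homeobox gene Msx1 and the repressor gene Prdm1. B3galt1 and Rbpms2 were marked in the pool J list alone.

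Among all coding genes, the share without a promoter peak was lower in each successive bin of CpG ratio. It was 94.2% of 1677 genes with a ratio under 0.1, 24.2% of 1570 genes from 0.5 to 0.6, and 4.12% of 364 genes from 1.0 to 1.1. Within the CpG-rich class it went from 9.13% at 0.7 to 0.8 to 4.47% at 0.9 to 1.0. The unmarked promoters had a median ratio of 0.763 (quartiles 0.707 and 0.832), and the marked CpG-rich ones had 0.811 (0.740 and 0.891). The quartile ranges overlap. Median GC content was 61.5% in the unmarked and 61.9% in the marked, and the CpG count was 71 and 76 per 1 kb. The rule set no floor for either, and the unmarked promoters went down to 33.1% GC and 20 CpGs per 1 kb. The unmarked promoters with the highest ratios were those of Klf14, a Krüppel-like factor (1.11), Lin28b, an RNA-binding protein of early development (1.08), Bves (1.08), Bmp2, a bone morphogenetic protein (1.08), and Barhl2, a homeobox factor of retina and spinal cord (1.07).

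**Figure D1:**
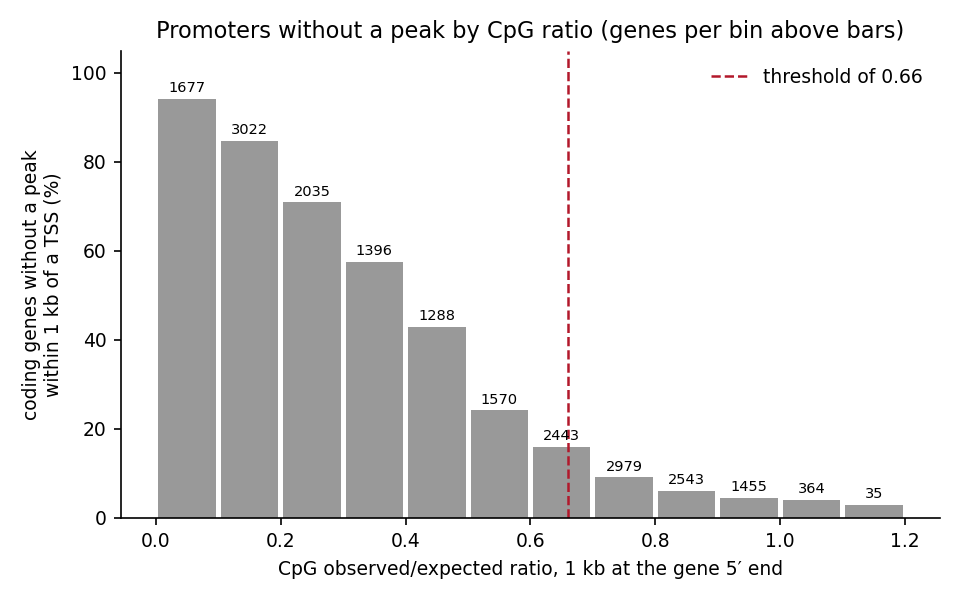
Share of autosomal coding genes without any peak within 1 kb of a TSS (y axis, %) by the CpG observed/expected ratio of the 1 kb at the gene 5′ end (x axis, bins of 0.1), with the number of genes in each bin above its bar and the threshold of 0.66 as a dashed line. The share is 94.2% in the lowest bin and 4.12% at a ratio of 1.0 to 1.1, so the 650 unmarked CpG-rich promoters are the low right-hand end of the distribution.

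The unmarked promoters were described by 54 gene families and lists, which hold 211 of the 650. The families' shares are set by the rule itself and so describe which genes it took, against 7.69% over all CpG-rich promoters. Homeobox genes, transcription factors of body patterning, were the largest group. Of 86 CpG-rich promoters of homeobox genes, 71 (82.6%) were unmarked. None of these 71 lay in repeated sequence. Of 74 CpG-poor promoters of homeobox genes, 62 were also unmarked, against 61.2% of all CpG-poor promoters.

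All 20 CpG-rich Hox promoters were unmarked, and so were the 19 CpG-poor ones. Hox genes lie in 4 clusters and give cells their position along the head-to-tail axis behind the forebrain. The nearest peak was a median of 123 kb from the Hox TSSs, from 62.4 kb to 191 kb. For Hoxa5 it was 140 kb away in the replicated list and in each pool's list, with a signal of 5.56 in the replicated list, 7.16 in pool I and 4.82 in pool J. Hoxa13, at the end of the same cluster that patterns limb tips and the hindgut, had its nearest peak 183 kb away in the replicated list and 196 kb away in each pool. Hoxd13 had one 88.8 kb away in all 3 of these lists. The lack of a peak within 1 kb of the CpG-rich Hox promoters was set by the rule for every list. Beyond that window, no list had a peak nearer than 62.4 kb to their TSSs.

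The CpG-rich NK homeobox, Irx and Pax genes were likewise all unmarked. They were 7 NK promoters, 4 Irx and 3 Pax (Pax2, Pax3 and Pax5). Of the CpG-poor promoters, 6 of 7 NK, 2 of 2 Irx and 5 of 6 Pax were unmarked. Irx genes pattern the heart, limb and hindbrain, and the nearest peak was a median of 453 kb from their TSSs. For Irx2 it was 699 kb away in the replicated list and in both pools, with a signal of 8.50, 10.7 in pool I and 6.41 in pool J. Nkx6-2 had its nearest peak 9.06 kb away in pool I, with a signal of 4.09, but 36.3 kb away in pool J and 36.1 kb in the replicated list. The peak close to Nkx6-2 was thus called in pool I and not in pool J.

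Other homeobox families were split between unmarked and marked genes. Of 35 CpG-rich genes in the list of other homeobox factors, 28 were unmarked, among them En2, which patterns midbrain and cerebellum, Tlx3 of sensory spinal neurons, and Otx2 of forebrain and midbrain patterning. The 7 marked ones were Barx2, Emx1, Emx2, Hhex, Hlx, Msx1 and Otx1. Emx1, the factor of cortical excitatory neurons, had a promoter signal of 6.37 in the replicated list. Of the LIM homeobox genes, 5 of 6 were unmarked (Lhx1, Lmx1b, Isl1, Lmx1a and Lhx5). The marked one was Lhx2, a regulator of cortical identity, with a promoter signal of 9.82. Of 5 CpG-rich Dlx promoters, Dlx3 and Dlx4 were unmarked. Dlx5 and Dlx6, which act in forebrain interneurons, had replicated signals of 3.17 and 2.77. Dlx2 had a peak at its promoter in the lists of pool I, with a signal of 3.73, and of both pools, while its nearest peak in pool J lay 17.4 kb away. Dlx5 had its nearest peak 17.9 kb away in pool J and 7.33 kb away in the list of both pools. In the replicated list the marked Dlx promoters thus had signals below the 3.67 median or, for Dlx2, no promoter peak. Of the POU genes, Pou4f1 and Pou4f2, factors of sensory neurons and retinal ganglion cells, and Pou2f2 were unmarked, and Pou2f1, Pou3f2 and Pou6f1 were marked with signals of 15.1, 8.91 and 9.54. Six2 and Six6, factors of kidney and eye, were unmarked, and Six5 was marked with a signal of 2.70.

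Of the T-box genes, Tbx21, Tbx2 and Tbx18 were unmarked and Tbx3 was marked with a signal of 4.27. Tbx18, of mural cells and heart, had a peak 8.89 kb from a TSS in pool I and 8.45 kb in the replicated list, while the nearest in pool J lay 475 kb away. Of the 2 CpG-rich GATA promoters, that of Gata5 was unmarked and that of Gata2, a blood and neural factor, had a signal of 3.32 in the replicated list and a pool J peak no nearer than 46.5 kb. Forkhead genes divided more evenly, with 10 of 27 unmarked, including Foxc2 of mesenchyme, Foxd3 of neural crest and Foxe1 of thyroid. Foxc2 had a peak 7.33 kb away in the replicated list, with a signal of 6.53, 11.1 in pool I and 5.96 in pool J. Of the tissue bHLH factors 10 of 17 were unmarked, among them Twist1, Hand2, Neurog1 and Neurog2, the last of which starts neurogenesis in the embryonic cortex. In contrast, 0 of 14 Sox, 0 of 8 Zic and Gli, and 0 of 4 Hes and Hey promoters were unmarked. Some members of these families act in neural progenitors and glia. Not all of them were marked in every list. Sox30 had a promoter peak in the pool I list alone, and Glis3 in the list of both pools alone. Zic1 was marked by a peak edge 0.954 kb away, while its nearest peak in pool J lay 776 kb away. Hes5, a Notch target, had a promoter signal of 15.4, with 19.3 in pool I and 8.53 in pool J.

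**Figure D2:**
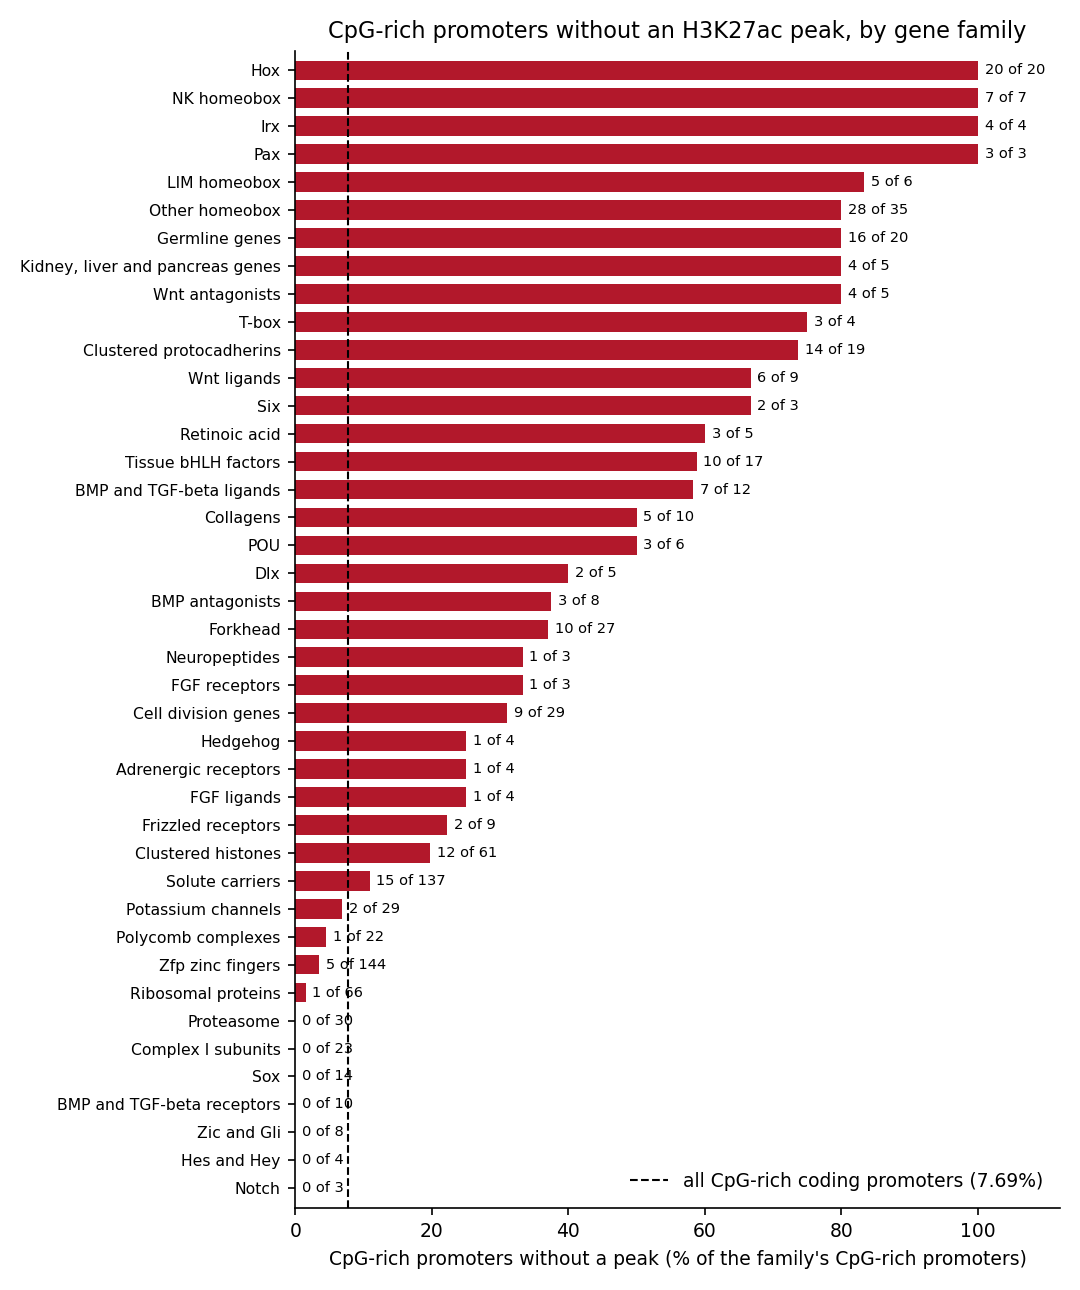
Share of each family's CpG-rich promoters that had no peak in any list (x axis, %) for families with at least 3 CpG-rich genes (y axis), with the counts beside the bars and the 7.69% of all CpG-rich promoters as a dashed line. Hox (20 of 20), NK homeobox (7 of 7), Irx (4 of 4) and Pax (3 of 3) genes stand at 100%, and Sox, proteasome and complex I genes at 0.

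Genes of secreted signals, of the proteins that bind them outside the cell and of their receptors gave different counts, and these differences were not tested. Of the CpG-rich Wnt ligand genes 6 of 9 were unmarked (Wnt5b, Wnt11, Wnt2b, Wnt9b, Wnt3a and Wnt6), and of the Wnt antagonists 4 of 5 (Sfrp1, Sfrp2, Sfrp5 and Wif1). Of the Frizzled receptors, to which Wnts bind, 2 of 9 were unmarked (Fzd9 and Fzd5). Wnt5b, whose sequence is shown above, had a peak 2.01 kb from a TSS in the replicated list, 2.53 kb in pool I and 3.0 kb in pool J, with signals of 2.67, 6.48 and 4.45, and 7 replicated peaks within its gene body. The marked Wnt ligands Wnt4, Wnt7a and Wnt9a had promoter signals of 7.06, 3.57 and 7.46.

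Of the ligands of the bone morphogenetic protein (BMP) and TGF-beta family, 7 of 12 were unmarked, among them Bmp2, Bmp6, Bmp8b and the oocyte factor Gdf9. Of their receptors none of 10 was, and of their antagonists 3 of 8 (Fst, Grem1 and Chrdl2). Bmp2 had its nearest peak 114 kb away in the replicated list and pool I, and 705 kb away in pool J. Gdf9 had one 1.35 kb away in the replicated list, with signals of 11.2, 12.9 in pool I and 10 in pool J. The surroundings of these unmarked ligand genes thus ranged from a strong peak just past the threshold to none within 100 kb. The other pathways gave 1 unmarked gene each: Fgf8 of 4 CpG-rich FGF ligands, Fgfr4 of 3 FGF receptors and Ihh of 4 Hedgehog genes. None of 3 Notch pathway genes was unmarked. Of the retinoic acid genes 3 of 5 were unmarked: Aldh1a2 and Aldh1a3, which make retinoic acid, and Cyp26a1, which breaks it down. The nearest peak to Cyp26a1 lay 147 kb away in the replicated list and in both pools.

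Of 22 CpG-rich genes of Polycomb complexes, 21 were marked and Phf19, a PRC2 cofactor, was not. The nearest peak to Phf19 was 8.24 kb away in the replicated list. In the list of kidney, liver and pancreas genes, 4 of 5 were unmarked: Nkx6-1, Onecut1, Onecut2 and Ptf1a. Prox1, also a hippocampal factor, was marked with a signal of 4.57. Nkx6-1 and Ptf1a are also counted in the NK homeobox and tissue bHLH lists. In the list of muscle and heart genes, 0 of 2 CpG-rich promoters were unmarked. Ryr2 and Des had replicated signals of 14.6 and 4.17.

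Germline genes formed the second large group, with 16 of 20 CpG-rich promoters unmarked. They include Ddx4, the germ cell helicase, Mael and Tdrd1 of the piRNA pathway, and Sycp1, Stag3, Smc1b, Syce2, Meiob and Hormad1 of meiotic chromosomes. Boll had its nearest peak 41.8 kb away in the replicated list, 41.7 kb in pool I and 42.4 kb in pool J. Fkbp6 had one at 19.6 kb in all 3 lists, with a signal of 9.36 in the replicated list. The 4 marked germline genes were Dazl, Tdrd5, Msh5 and Tex14, with replicated signals of 4.37 for Dazl, 3.13 for Msh5 and 12.8 for Tex14, and a Tdrd5 peak at the promoter in the pool I list (signal 3.89). The nearest peaks of the 16 unmarked CpG-rich germline genes lay 3.48 kb to 126 kb away. Of 34 CpG-poor germline promoters, 31 were also unmarked, against 61.2% of all CpG-poor promoters.

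Cell division genes were unmarked in 9 of 29 cases: Bub1 of the spindle checkpoint, E2f8, Top2a, Mcm3 and Mcm6 of the replicative helicase, Aurkb, Cdc6, Ccnb1 and Ccnb2. Adult cortical neurons do not divide, but 20 of the 29 CpG-rich promoters of this list had a peak. Top2a had its nearest peak 16.3 kb away in the replicated list, 15.9 kb in pool I and 16.1 kb in pool J, and 22 replicated peaks within 100 kb. Bub1 had its nearest 39.3 kb away in the replicated list and in pool I, and 39.4 kb in pool J.

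Housekeeping genes were nearly absent. Of 66 CpG-rich promoters of ribosomal proteins 1 was unmarked, Rpl10l, a retrogene used in the testis, and none of 30 proteasome promoters or of 23 promoters of respiratory complex I. Of 144 Zfp zinc finger promoters 5 were unmarked (3.47%). Of 29 potassium channel promoters 2 were unmarked (Kcnk15 and Kcnk5), and this 6.90% is near the share of all CpG-rich genes. Of 137 solute carrier promoters, 15 (10.9%) were unmarked, a share near the 7.69% of all CpG-rich genes. The dopamine receptors Drd2 and Drd5 were both unmarked, and they were the only CpG-rich promoters of the 5 dopamine receptor genes. Drd2 had its nearest peak 169 kb away in the replicated list, 165 kb in pool I and 169 kb in pool J. Of 3 CpG-rich neuropeptide genes 1 was unmarked, and Agrp and Nppc were marked with signals of 18 and 5.06. Agrp as annotated spans 70696 bp with 2 TSSs, and its signal is the highest within 1 kb of either. Which of the 2 TSSs carries it was not examined. The unmarked one was Penk, which encodes enkephalin, with its nearest peak at 199 kb in all 3 lists. Of 4 CpG-rich adrenergic receptors Adra2b was unmarked, and neither of 2 serotonin receptors was.

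The labelled tissue was checked against marker lists of cortical cell types, beside a share of 60.5% of all autosomal coding genes that had a promoter peak. A promoter peak was found for 10 of 10 excitatory neuron markers, 9 of 10 astrocyte markers, 8 of 9 oligodendrocyte markers, 7 of 8 microglia markers, and 8 of 10 endothelial and mural markers. Of 24 interneuron markers 14 had one, a share near that of all coding genes, and of 12 hindbrain and spinal cord markers none had. Of the CpG-rich cortical markers, Nkx6-2 alone was among the 650. All 7 CpG-rich hindbrain and spinal cord markers were (En2, Hoxa5, Tlx3, Lmx1b, Lbx1, En1 and Pax2).

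Repeated sequence moved with membership. In 49 of the 650 promoters (7.54%), over 50% of the 31-base words of the 1 kb occur more than once in the genome, against 33 of 7804 marked CpG-rich promoters (0.423%) and 0.970% of all CpG-rich promoters. Its part in the lack of peaks was not tested. Without these 49, 601 unmarked promoters remain. The clustered histone genes, which encode the replication-dependent core histones, gave 12 unmarked promoters of 61, and 9 of the 12 lie in repeated sequence. Hist2h3c1 had 96.8% of its words repeated and a peak at 1.33 kb with a signal of 20.5 in the replicated list, 23.6 in pool I and 17.2 in pool J. Hist1h2ap, Hist1h2br and Hist1h2ao had 100% repeated. Without repeated windows 3 unmarked histone promoters remain.

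The clustered protocadherins, cell-surface adhesion proteins of which each neuron uses a few, gave 14 of 19 CpG-rich promoters as unmarked. The CpG-poor promoters of this list were unmarked in 36 of 38 cases. Each cluster puts many promoters before shared constant exons, and 16 replicated peaks lie within the gene body of Pcdhga8, whose nearest peak was 30.1 kb from its TSS in the replicated list, 36.1 kb in pool I and 40.3 kb in pool J. Gene bodies of these genes overlap, so their peaks are shared. Each protocadherin exon is used in few neurons, and acetylation in few cells and low acetylation in many cannot be told apart here.

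Ordered along the chromosomes among the CpG-rich promoters, 467 of the 650 unmarked promoters had no unmarked neighbour. The other 183 stood beside at least 1 other unmarked promoter, in 66 runs, of which 20 runs of 3 or more held 91. The longest run was 8 histone promoters on chromosome 13, of which 7 are repeated sequence. The next were 7 promoters from Evx2 to Hoxd1 on chromosome 2, spanning 103 kb, and 7 of predicted genes on chromosome 9, all in repeated sequence. No list had a peak within the Evx2 to Hoxd1 span, and its 4 CpG-poor coding genes were also unmarked. The 6 promoters of the Hoxa run on chromosome 6 spanned 103 kb, again with 0 peaks in any list and 7 CpG-poor genes that were unmarked. Hoxb9, Hoxb8, Hoxb7 and Hoxb5, and Hoxc13, Hoxc12, Hoxc11 and Hoxc8, formed runs of 4. The Irx1, Irx2 and Irx4 run spanned 1297 kb and the Dmrt1, Dmrt3 and Dmrt2 run, genes of gonadal sex development, spanned 167 kb, both without a peak. Of the 650, 24 had another unmarked gene's 5′ end under 1 kb away, such as Hoxd3 and Hoxd4 or Gpc2 and Stag3, so these pairs share sequence. Without repeated windows 56 promoters remained in runs of 3 or more.

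Peaks flanked the Hoxd run on both sides at a distance. The nearest peak before the Hoxd13 5′ end was 88.8 kb away in both pools, at the promoter of Lnpk, which was CpG-poor and marked. The nearest after it was 157.1 kb away in pool I and 157.2 kb in pool J, at the CpG-rich promoter of Mtx2, a mitochondrial import gene. The span between them, 246 kb, held no peak in either pool. In the 400 kb on either side of Hoxd13, pool I had 12 peaks with a highest signal of 12.1, and pool J had 6 with a highest of 9.83.

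**Figure D3:**
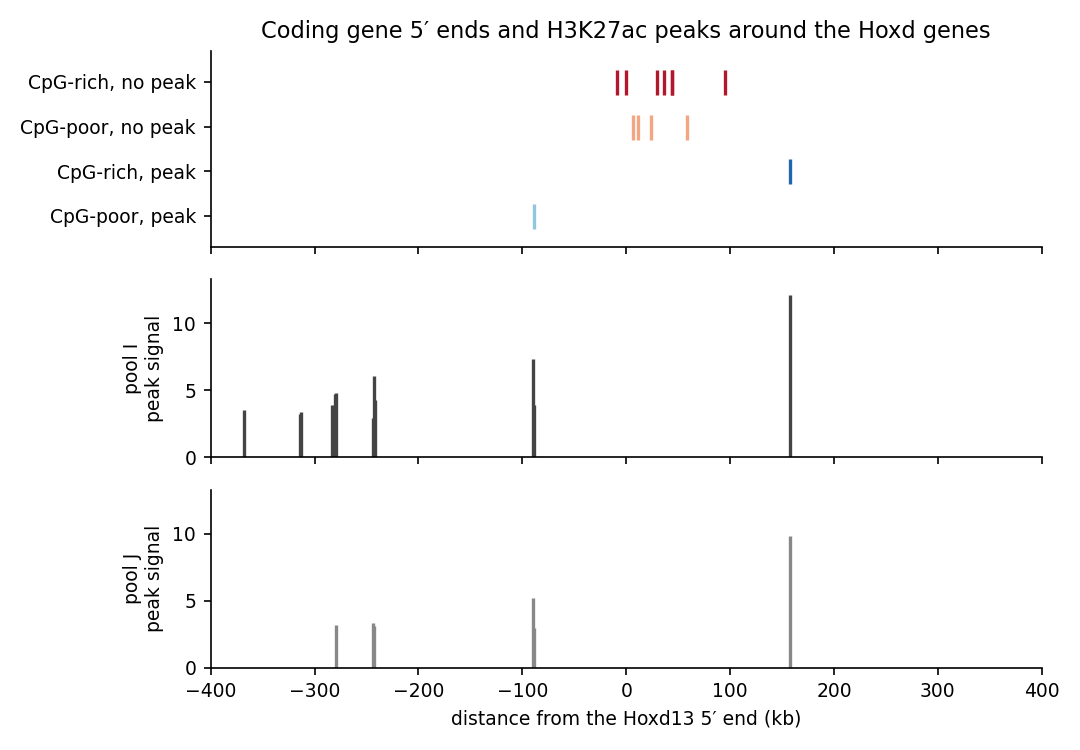
Coding gene 5′ ends by class (top) and the signals of the pool I (middle) and pool J (bottom) peaks, each at its position in kb from the Hoxd13 5′ end (x axis). The 7 unmarked CpG-rich and 4 unmarked CpG-poor promoters lie in a 246 kb span without a peak in either pool, between peaks at Lnpk and Mtx2.

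The unmarked promoters lay a median of 30.6 kb from the nearest peak of any list (quartiles 12.1 kb and 74.5 kb). This was 35.9 kb in the replicated list, 35.3 kb in pool I and 43.6 kb in pool J. For the CpG-poor unmarked promoters the median was 50.1 kb, with quartiles of 15.3 kb and 191 kb. Within 100 kb of the 650 lay a median of 4 replicated peaks (quartiles 1 and 10), against 11 for the marked CpG-rich and 2 for the CpG-poor unmarked promoters. No replicated peak lay within 100 kb of 113 of the 650 (17.4%), against 8 of 7804 marked CpG-rich promoters (0.103%), which by definition have a peak close by, and 37.9% of the CpG-poor unmarked promoters. Among those with the most peaks within 100 kb were Aurkb, a mitotic kinase (41), Gm48551 (41), Zfp541 (37), Aunip (36), Gipc3 (36), the receptor tyrosine kinase gene Erbb2 (35) and Syce2 (32). The farthest from any peak were Gm21863 at 966 kb, Irx2 at 699 kb, Isl1 at 665 kb, 5730507C01Rik at 632 kb, Irx1 at 559 kb and Gm21738 at 404 kb. For Gm21863, 63.1% of the words are repeated.

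**Figure D4:**
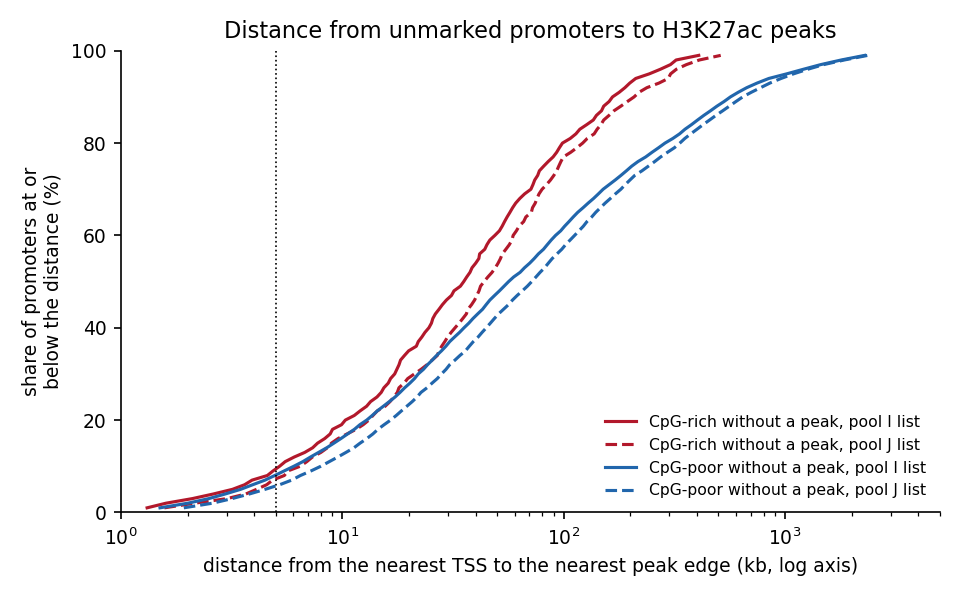
Cumulative share of unmarked promoters (y axis, %) at or below each distance from the nearest TSS to the nearest peak edge (x axis, kb, log scale), for CpG-rich (red) and CpG-poor (blue) promoters against the pool I (solid) and pool J (dashed) lists. The dotted line marks 5 kb. CpG-rich medians are 35.3 kb in pool I and 43.6 kb in pool J.

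A peak lay over 1 kb and up to 5 kb away for 65 of the 650 (10%), and for 9.34% of all 8212 unmarked coding promoters of either class, so the share is near the background. Of the 65, 47 had such a peak in all 4 lists, 14 in the list of pool I and not in that of pool J, 1 in pool J and not in pool I, and 3 in neither pool's list. In the replicated list the nearest peak lay in this range for 59 of the 650. Its median signal was 6.24, where all autosomal peaks had 3.67. The strongest replicated peaks in this range, not always the nearest, were beside Hist2h3c1 (20.5), Efcab7 (17.0), Spag6, a sperm flagellum gene (15.9), and Sec1 (14.9). Next came Slc5a5, the iodide transporter of the thyroid (13.4), Tdrd1 (11.5), Prox2 (11.4) and Pheta2 (11.3), whose nearest replicated peak had 4.98. Efcab7 had its flanking peak 1.05 kb away in the replicated list, 1.02 kb in pool I and 1.12 kb in pool J, with signals of 17.0, 20.9 and 13.0. The unmarked genes just inside the distance threshold were P4ha3, Efcab7 and Evc (each 1.02 kb), and Gm12184 and Alk (each 1.09 kb). Just outside it, Tmem79 had its nearest peak at 0.982 kb, Esrp2 at 0.970 kb, Zic1 at 0.954 kb, Gdf11 at 0.883 kb and Bicral at 0.882 kb. Just above the ratio threshold were Gm44503, 2210011C24Rik, Nid2, Kcnk5 and Esrrg (up to 0.662), and just below it Zbed5, B4galnt2, Sdc1, Gm3488 and Psd4 (down to 0.659).

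Gene layout is described next for the unmarked and the marked CpG-rich genes, with no test. Their median length was 18.1 kb, against 28.1 kb, and the nearest other coding 5′ end was 30.9 kb away, against 21.4 kb. A coding gene started on the opposite strand within 1 kb of 57 (8.77%), against 21.4% of the marked. A single exon made up 56 (8.62%), against 3.36%, and 388 (59.7%) had 1 TSS, against 45.4%. A gene with more TSSs has more windows in which a peak can fall, so this last difference is partly built into the rule. In 138 (21.2%) the gene body held a replicated peak, against 46.1% of the marked.

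Short motifs were sought as exact matches, on both strands, from 250 bp before to 50 bp after the 5′ end. The ETS motif CCGGAAG was found in 59 of the 650 (9.08%), against 19.8% of marked CpG-rich promoters and 11.0% of all coding promoters. YY1 (AAGATGGC) was in 1.23% against 5.04% and 2.93% of all, NRF1 (GCGCATGCG) in 1.54% against 4.65% and 2.20%, and the CRE of CREB and ATF (TGACGTCA) in 1.54% against 4.27% and 2.43%. Its shorter core (TGACG), which every CRE match contains, was in 26.9% against 37.0% and 23.4%. The shares of the GC box (GGGCGG), 70.6% against 72.4% and 43.7% of all, of CCAAT, 39.1% against 37.3% and 38.6%, and of E2F (GCGGGAA), 10.2% against 10.4% and 5.82%, were alike in the unmarked and the marked. The TATA box (TATAAA) was in 10.6% against 5.68% and 12.7%, and the homeobox core TAATTA in 3.23% against 1.77% and 5.21%. The unmarked promoters thus had fewer matches to ETS, YY1, NRF1 and CRE and more to TATA. Among the sequences shown, those of Gata5, Wnt5b, Boll, Nkx6-2, Tbx21 and Atp6v0c have a GC box and none has the ETS, NRF1, CRE or YY1 letters. A match is no evidence of binding, and these shares do not say which factor acts.

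**Figure D5:**
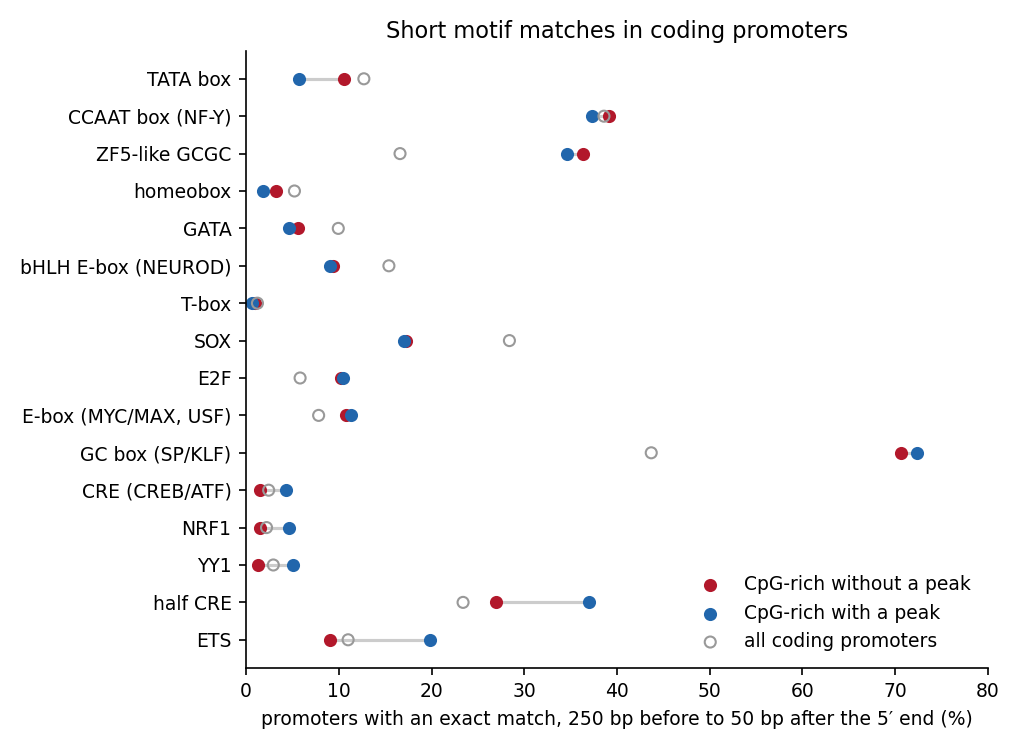
Share of promoters with an exact motif match from 250 bp before to 50 bp after the gene 5′ end (x axis, %), by motif (y axis), for CpG-rich promoters without (red) and with (blue) a peak and for all coding promoters (open). The ETS motif is at 9.08% and 19.8%, and the GC box at 70.6% and 72.4%.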

How the data were processed

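H3K27ac ChIP-seq of left cerebral cortex was deposited as 4 peak lists on mm10, in narrowPeak format with 10 columns. Per the file descriptions deposited with the samples, a replicated and a pseudoreplicated list came from the alignments of pools I and J together, and 1 pseudoreplicated list from each pool. The authors gave each peak a score, a signal value, a summit position and −log10 p and −log10 q values. Of these, signal, −log10 q and summit were used. The sources used here name no aligner, peak caller, version or read depth, so no interval for counting error was made.

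Genes and TSSs came from the GENCODE vM21 basic annotation and sequences from GRCm38.p6, autosomes only, 1-based. Distance ran from the nearest TSS to the nearest peak edge. Python 3.11.15 with numpy 2.4.6, numba 0.67.0 and matplotlib 3.10.9 was used, and the functions were checked on simulated data. Repeated sequence means 31-base words that occur more than once in the genome. Motifs were exact matches.

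The 650 promoters, the gene lists and the rules were chosen with earlier results of these data known, so nothing here is an independent test. Named genes were up to 4 unmarked members of highest CpG ratio per family (all where there were 5 or fewer), marked CpG-rich members where a family had at most 4, the 8 with most peaks within 100 kb, the 8 with the highest flanking signal, the 6 farthest from a peak, those of the 6 longest runs, the 5 on each side of each threshold, and the 5 of highest ratio. Other names were chosen after their values were seen. A gene that this rule names is not reported here. The 1 CpG-poor promoter that the rule for sequences picked, that of Gm3488, is not printed, since all its words are repeated. Alternatives were other windows, ratios, lists, q thresholds and gene sets. Those without repeated windows and with the comprehensive transcript set were chosen after seeing the data.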

Additional observations from a re-analysis of the deposited data

How the results depend on the processing

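The 650 unmarked promoters numbered 360 at a CpG ratio of at least 0.75, and all other alternatives gave 531 to 930. The list of pool J alone gave 930 and that of pool I alone 759. Both contain all 650 by construction, since the rule required absence from every list. Their share of CpG-rich promoters moved from 7.69% to 9.11% at a ratio of at least 0.60, 6.07% at 0.75, 9.50% with peaks of −log10 q of at least 5, 8.50% with the replicated list, 6.91% with the comprehensive transcript set, and 8.98% to 11.0% with 1 pool left out. At a ratio of at least 0.75, homeobox genes were 47 and germline genes 6 of the 360 unmarked, against 71 and 16 of the 650. With a GC share of at least 55%, cell division genes were 3 of 531, against 9 of the 650. How many CpG-rich genes of each family passed these thresholds was not counted. Without repeated windows, 601 unmarked promoters remained, of which histone genes were 3 and promoters in runs of 3 or more 56. The median distance was 37.8 kb with −log10 q of at least 5 and 32.8 kb to 39.5 kb with 1 pool left out, where it ran over more promoters. The share with a flanking peak up to 5 kb away was 6.25% with a window of 2500 bp, which leaves fewer bases to search. The cause of the other moves was not tested.

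Differences in motif shares (unmarked minus marked, percentage points) that changed sign were small. With 500 bp on either side they were −0.21 for CCAAT, 0.59 for the E-box, 1.46 for E2F, −1.20 for NEUROD and −1.89 for SOX. On the gene strand only they were 0.74 for the GC box, 0.05 for E2F and −0.57 for SOX, and without repeated windows 0.15 for the GC box, 0.21 for E2F and −0.56 for NEUROD. Those of ETS, YY1, NRF1, CRE, TGACG and TATA kept their sign in these 3 alternatives, but some changed in size. ETS went from −10.75 to −14.98 with 500 bp on either side and −6.29 on the gene strand, YY1 from −3.81 to −8.75 and −2.70, and TATA from 4.94 to 2.68 and 4.19. No paired analysis was possible because the samples form 1 group, each list belongs to a pool or to both, and no test was made.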

Other observations

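Of the 650 unmarked promoters, 439 were in none of the families and lists, and 46 belong to genes with Gm or Rik names. The share of CpG-rich promoters that were unmarked ranged over the autosomes from 5.15% on chromosome 16 to 11.2% on chromosome 18, with 10.8% on chromosome 13 and 10.5% on chromosome 14. Chromosome 18 holds the clustered protocadherins and chromosome 13 the longest histone run. Whether these clusters bear on the shares of their chromosomes was not tested.

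Some genes with an unmarked 5′ end held many replicated peaks within the gene body. Nav3, a neuron navigator gene, had 49, with the nearest peak to a TSS 13.9 kb away in the replicated list, 12.6 kb in pool I and 14.0 kb in pool J. Plcb4, a phospholipase C of neuronal signalling, had 18, with its nearest peak 6.88 kb away in the replicated list and in pool I and 6.85 kb in pool J. These genes were chosen after their values were seen, and whether an unannotated start lies at such a peak was not tested.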
